A study of Homo sapiens with 5 samples.

Results

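Described here are 10 genes, the aldo-keto reductases AKR1C1, AKR1C2, AKR1C3, AKR1B1 and AKR1B10 and the NRF2 target genes NQO1, GCLM, GCLC, TXNRD1 and SRXN1, of 33538 genes counted. They were chosen by name, after low AKR1C1 and AKR1C2 values had been seen in the HA FOSL1 sample of these same data. Their ratios between samples are therefore given as a description with no test. MDA-MB-468 cells, a long-established triple-negative breast cancer line, were used, and in them the study raised FOSL1, the gene of the AP-1 subunit FRA-1. The 5 samples were an HA control, HA FOSL1, a VPR control, and VPR FOSL1 with the guide RNA gRNA2 or gRNA3, each marked by a different hashtag antibody before all were pooled into 1 library. The labels do not spell out HA and VPR, describe no vector or promoter, do not say whether a sample is 1 clone, and give no statement on whether 5-fluorouracil, which the series mentions, was given here. Each group held 1 sample, so no difference between samples has a replicate check, and every interval below is a 95% interval of counting error only.

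NRF2, encoded by NFE2L2, is a basic leucine zipper factor that KEAP1 marks for degradation and that oxidants and electrophiles set free. With a small MAF partner it binds the antioxidant response element, whose letters partly overlap those of the AP-1 site. Its targets make glutathione, reduce thioredoxin, supply NADPH and remove reactive carbonyls and quinones. Human AKR1C genes are among the most NRF2-responsive genes of epithelial tumour cells, and their enzymes also reduce steroids and prostaglandins.

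The kept cells numbered 1826 to 4299 per sample, with 42058533 to 85556699 UMIs (unique transcript tags) and a median of 15401.5 to 20768.5 UMIs per cell. The HA FOSL1 cells were the deepest and had the lowest median mitochondrial share, 9.80% against 10.5% to 11.5% in the other samples. With all cells thinned to equal depth the HA log2 ratio was -1.87 for AKR1C1, -2.29 for AKR1C2, 2.001 for AKR1B1 and 0.62 for GCLM, and without the 10% deepest cells of each sample it was -2.03, -2.46, 1.99 and 0.66. The part of the mitochondrial share was not tested. FOSL1 stood at 8.96 CPM (UMIs per 1000000 gene UMIs of the sample) in the HA control and 63.5 CPM in HA FOSL1, and at 8.91 CPM in the VPR control, 100.5 CPM with gRNA2 and 94.3 CPM with gRNA3. The epithelial markers EPCAM, CDH1, KRT8, KRT18, KRT19 and KRT5 and the receptor gene EGFR were present in every sample, EGFR at 1829 to 2365 CPM. PGR was at 0 in every sample and ESR1 lay between 1.60 and 4.87 CPM. Of 6 markers of blood, endothelium, fibroblasts and liver, COL1A1 reached 4.30 CPM and no other exceeded 0.737 CPM.

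AKR1C1, AKR1C2 and AKR1C3 lie side by side on chromosome 10 (GRCh38.p14), AKR1C1 at 4963415 to 4983283, AKR1C2 at 4987775 to 5018000 and AKR1C3 at 5048781 to 5107686. AKR1C1 (ENSG00000187134) and AKR1C2 (ENSG00000151632) are near copies of each other. The sequences before their listed starts are shown because the pair is alike here too. The 250 bases before the start in the RefSeq promoter table share a run of 245 identical bases, and capitals mark the letters outside that run. Both are written 5′ to 3′ on the gene's own strand, AKR1C1 from chr10:4963165-4963414 on the plus strand and AKR1C2 from chr10:5003858-5004107 on the minus strand. The AKR1C2 window precedes a start inside the gene's annotated span, and the sequence before the span's far end at 5018000 was not examined.
AKR1C1: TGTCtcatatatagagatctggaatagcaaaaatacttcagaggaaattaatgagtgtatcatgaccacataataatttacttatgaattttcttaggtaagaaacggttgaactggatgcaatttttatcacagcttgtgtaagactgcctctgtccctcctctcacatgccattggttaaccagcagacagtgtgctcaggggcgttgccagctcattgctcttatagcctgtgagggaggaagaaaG
AKR1C2: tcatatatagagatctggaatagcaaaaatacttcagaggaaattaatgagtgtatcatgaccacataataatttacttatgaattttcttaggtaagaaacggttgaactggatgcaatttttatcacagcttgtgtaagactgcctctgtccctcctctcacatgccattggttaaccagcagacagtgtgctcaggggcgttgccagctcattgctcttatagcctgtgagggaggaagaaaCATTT

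Both strands of these windows were searched for the core of the antioxidant response element, TGACNNNGC, and for the AP-1 site, TGANTCA. A site can match both patterns where they overlap. Of 35116 promoter windows of this length, 10.9% hold the first and 6.57% the second. Of the 10 genes, 9 had a window in the table, and AKR1C3, AKR1B1 and TXNRD1 had more than 1. The AP-1 letters were found in none of the 12 windows of the members. The element core was found in the window of GCLM and in both windows of TXNRD1, and in no window of AKR1C1, AKR1C2, AKR1C3, AKR1B1, NQO1, GCLC or SRXN1. A match is only a match of letters, and its absence says only that these letters are not in this window. The windows with a match are shown with the matched letters in capitals, GCLM from chr1:93909431-93909680 on the minus strand and TXNRD1 from chr12:104215529-104215778 and chr12:104286782-104287031 on the plus strand, all in GRCh38.p14.
GCLM: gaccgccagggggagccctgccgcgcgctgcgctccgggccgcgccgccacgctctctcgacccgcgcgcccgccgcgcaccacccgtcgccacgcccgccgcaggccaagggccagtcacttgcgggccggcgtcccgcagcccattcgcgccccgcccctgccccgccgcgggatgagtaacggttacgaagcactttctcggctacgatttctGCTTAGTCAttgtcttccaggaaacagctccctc
TXNRD1, upstream start: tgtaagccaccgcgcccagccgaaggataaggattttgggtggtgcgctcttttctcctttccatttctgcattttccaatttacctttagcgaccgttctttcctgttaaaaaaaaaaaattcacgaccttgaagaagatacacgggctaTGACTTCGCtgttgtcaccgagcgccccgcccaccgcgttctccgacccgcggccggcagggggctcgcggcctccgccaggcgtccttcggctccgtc
TXNRD1, downstream start: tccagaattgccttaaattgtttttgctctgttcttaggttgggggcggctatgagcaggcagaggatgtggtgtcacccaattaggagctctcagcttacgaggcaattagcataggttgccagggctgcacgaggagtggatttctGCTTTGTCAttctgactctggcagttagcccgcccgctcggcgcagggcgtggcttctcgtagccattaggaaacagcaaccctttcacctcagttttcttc

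The 3 AKR1C genes were far lower in HA FOSL1 than in the HA control, whereas with the guides AKR1C2 was lower by less and AKR1C1 by less still. AKR1C1 encodes a reductase that inactivates progesterone. It stood at 133 CPM in the HA control (exact Poisson interval 130 to 136), 30.5 CPM in HA FOSL1 (28.8 to 32.2), 143 CPM in the VPR control (139 to 146), 123 CPM with gRNA2 (120 to 126) and 129 CPM with gRNA3 (126 to 131). The HA FOSL1 sample alone was low, and the other 4 lay within a narrow band in which both guide samples were under both controls. As log2 of CPM + 1, a scale that shrinks the ratios of sparse genes, AKR1C1 was -2.09 in the HA arm (interval -2.18 to -2.01), -0.21 with gRNA2 (-0.27 to -0.16) and -0.15 with gRNA3 (-0.19 to -0.10). Here and below an arm is a FOSL1 sample set against the control of its own system, and the guide arms share the VPR control.

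AKR1C2 encodes a reductase that inactivates the androgen dihydrotestosterone. It stood at 147 CPM in the HA control, 24.7 CPM in HA FOSL1, 158 CPM in the VPR control, 97.1 CPM with gRNA2 and 93.0 CPM with gRNA3. All 3 FOSL1 samples were under both controls, and HA FOSL1 was lowest. The log2 ratio was -2.52 in the HA arm (-2.61 to -2.43), -0.70 with gRNA2 (-0.75 to -0.65) and -0.76 with gRNA3 (-0.81 to -0.71). Only 1 of the 5748 genes that averaged 20 CPM or more in the HA arm had a lower ratio.

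AKR1C3, which makes testosterone and prostaglandin F, was near the limit of counting, with 38 to 241 UMIs per sample. It stood at 4.23 CPM in the HA control (3.71 to 4.79), 0.904 CPM in HA FOSL1 (0.639 to 1.24), 2.84 CPM in the VPR control (2.36 to 3.37), 2.35 CPM with gRNA2 and 2.50 CPM with gRNA3. The log2 ratio of AKR1C3 was -1.46 in the HA arm (-1.71 to -1.18), while the intervals of both guide arms held 0. The controls themselves differed by -0.45 (-0.69 to -0.20).

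Since reads of near copies can be split between them, the UMIs of the 3 AKR1C genes were also summed. The sum was 284 CPM in the HA control, 56.1 CPM in HA FOSL1, 304 CPM in the VPR control, 222 CPM with gRNA2 and 224 CPM with gRNA3. Its log2 ratio was -2.32 in the HA arm (-2.38 to -2.26), -0.45 with gRNA2 (-0.49 to -0.41) and -0.44 with gRNA3 (-0.47 to -0.40), against 0.096 between the controls (VPR over HA). The balance within the pair also differed between samples. AKR1C1 gave 47.6% of the AKR1C1 and AKR1C2 UMIs in the HA control (exact binomial interval 46.8% to 48.4%) and 47.4% in the VPR control (46.6% to 48.3%). In the FOSL1 samples it gave 55.2% with HA (53.2% to 57.2%), 55.9% with gRNA2 (54.9% to 56.8%) and 58.1% with gRNA3 (57.4% to 58.8%). The controls thus had the same balance within counting error, and each FOSL1 sample was shifted toward AKR1C1.

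**Figure D1:**
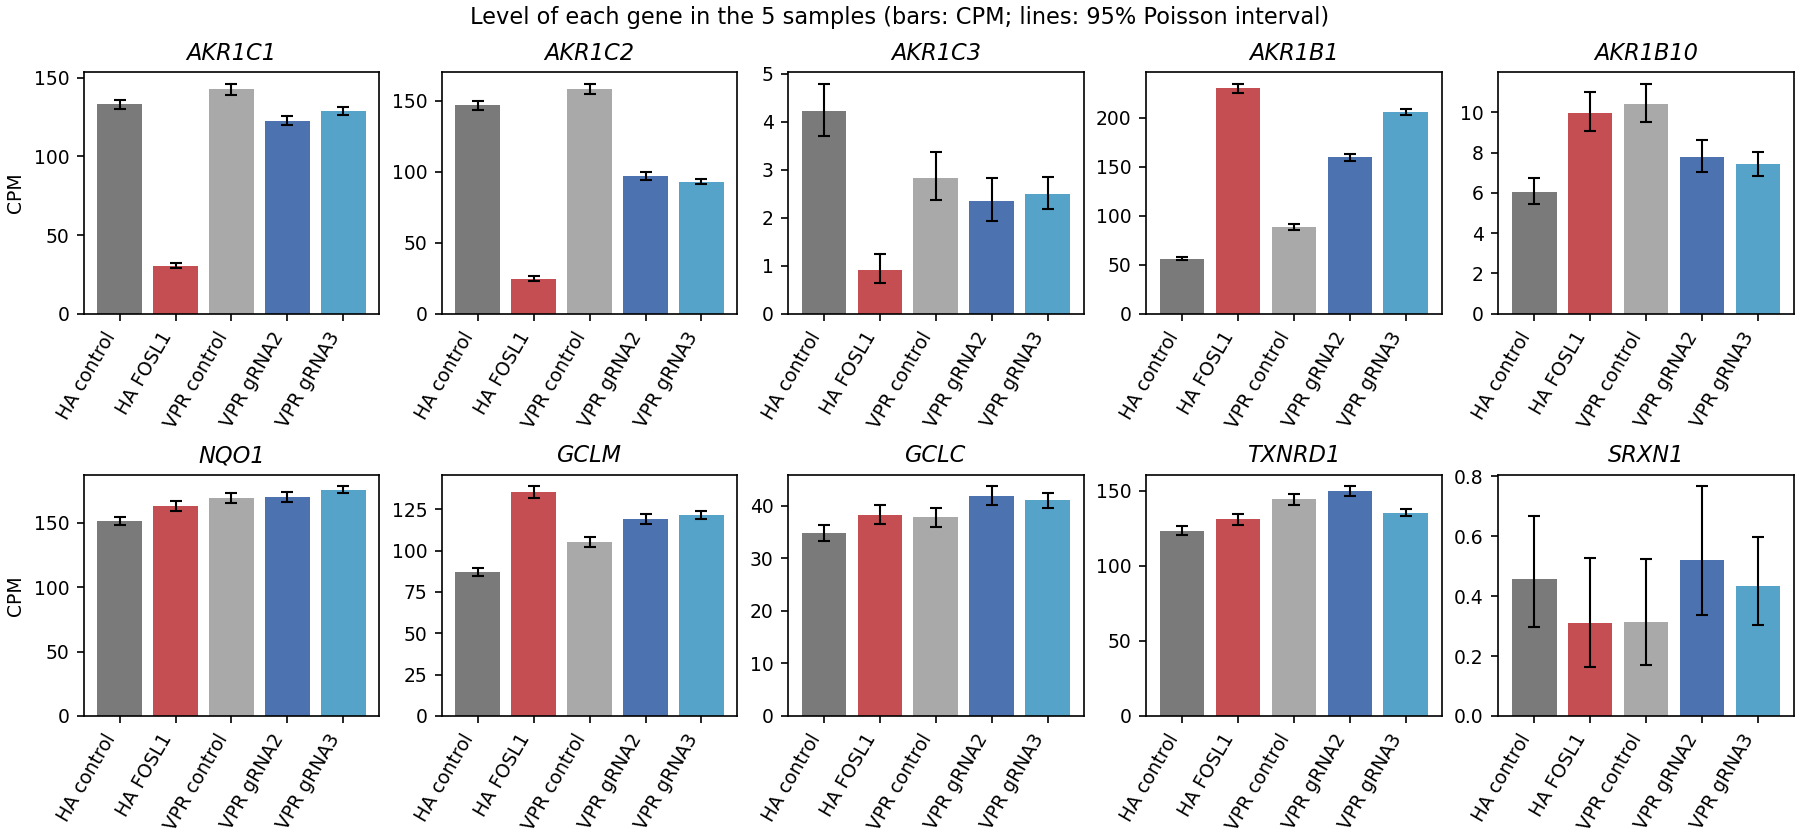
Level of each of the 10 genes in the 5 samples, in CPM (vertical axes, each starting at 0 with its own scale). Bars are single samples and lines are 95% Poisson intervals of counting error. HA FOSL1 is lowest for AKR1C1 at 30.5 CPM and AKR1C2 at 24.7 CPM, and highest for AKR1B1 at 230 CPM.

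AKR1B1 went the other way and was higher in all 3 FOSL1 samples than in either control. AKR1B1 (ENSG00000085662; chromosome 7, 134442350 to 134459239) encodes aldose reductase, the first enzyme of the polyol pathway. It stood at 56.2 CPM in the HA control (54.3 to 58.2), 230 CPM in HA FOSL1 (225 to 234), 88.5 CPM in the VPR control (85.8 to 91.3), 160 CPM with gRNA2 (156 to 163) and 206 CPM with gRNA3 (203 to 209). The log2 ratio was 2.01 in the HA arm (1.96 to 2.07), 0.84 with gRNA2 (0.79 to 0.90) and 1.21 with gRNA3 (1.16 to 1.26). The controls differed by 0.65 (0.58 to 0.71), a ratio above that of 5723 of 5726 genes, so the size of each ratio depends on the control. Against the control of the other system the ratios were 1.37, 1.49 and 1.85.

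AKR1B10, a reductase of retinal and of fatty aldehydes encoded beside AKR1B1 at 134527567 to 134541412, was sparse, with 346 to 634 UMIs per sample. It stood at 6.07 CPM in the HA control (5.44 to 6.74), 9.99 CPM in HA FOSL1 (9.05 to 10.99), 10.4 CPM in the VPR control (9.50 to 11.4), 7.80 CPM with gRNA2 (7.03 to 8.64) and 7.41 CPM with gRNA3 (6.84 to 8.01). The HA control was the lowest sample, and HA FOSL1 and the VPR control were alike within counting error. This gave a log2 ratio of 0.64 in the HA arm (0.45 to 0.82), -0.38 with gRNA2 (-0.56 to -0.20) and -0.44 with gRNA3 (-0.60 to -0.28). The controls differed by 0.69 (0.51 to 0.87), as much as any arm.

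Among the genes chosen by name, the NRF2 targets outside the aldo-keto reductases did not share the low AKR1C values, with SRXN1 too sparse to tell. NQO1 (chromosome 16, 69709401 to 69726560), a quinone reductase often used as a readout of NRF2, stood at 151 CPM in the HA control, 163 CPM in HA FOSL1, 169 CPM in the VPR control, 170 CPM with gRNA2 and 176 CPM with gRNA3. Its log2 ratio was 0.11 in the HA arm (0.060 to 0.15), 0.0058 with gRNA2 (-0.039 to 0.051) and 0.055 with gRNA3 (0.015 to 0.095). These ratios lie under the 0.16 that separated the controls (0.12 to 0.20).

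GCLM and GCLC encode the modifier and the catalytic subunit of glutamate-cysteine ligase, the rate-limiting enzyme of glutathione synthesis. GCLM (chromosome 1, 93885199 to 93909430) stood at 86.9 CPM in the HA control, 136 CPM in HA FOSL1, 105 CPM in the VPR control, 119 CPM with gRNA2 and 122 CPM with gRNA3. Every FOSL1 sample was above both controls, with log2 ratios of 0.63 in the HA arm (0.58 to 0.69), 0.18 with gRNA2 (0.12 to 0.23) and 0.21 with gRNA3 (0.16 to 0.25). The guide ratios were under the 0.27 between the controls (0.22 to 0.33), and against the VPR control the HA ratio was 0.36. GCLC (chromosome 6, 53497341 to 53545101) lay between 34.7 and 41.9 CPM in all 5 samples, and its log2 ratio was 0.14 for HA FOSL1, 0.14 for gRNA2, 0.11 for gRNA3 and 0.12 between the controls. The subunits thus differed in the HA arm, where their intervals did not overlap.

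TXNRD1 (chromosome 12, 104215779 to 104350307), the cytosolic thioredoxin reductase and itself a selenoprotein, stood at 123 CPM in the HA control, 131 CPM in HA FOSL1, 144 CPM in the VPR control, 150 CPM with gRNA2 and 136 CPM with gRNA3. Its log2 ratio was 0.085 in the HA arm (0.035 to 0.14), 0.053 with gRNA2 (0.0050 to 0.10) and -0.089 with gRNA3 (-0.13 to -0.046), against 0.22 between the controls. SRXN1 (chromosome 20, 646615 to 653200), which repairs overoxidised peroxiredoxins, had only 13 to 37 UMIs per sample. Its levels were 0.309 to 0.520 CPM, and each arm's interval held 0, from -0.40 to 0.13 in the HA arm and from -0.078 to 0.47 with gRNA2. A difference in SRXN1 was not detectable at this depth.

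Counted together, 7 of the 10 genes reached a mean of 20 CPM over the samples compared, and AKR1C3, AKR1B10 and SRXN1 did not. In the HA arm 2 of the 7 were at least 1.5-fold lower (AKR1C1 and AKR1C2) and 2 at least 1.5-fold higher (AKR1B1 and GCLM), where 2.19% of 5748 genes were lower and 5.97% higher by that much. With gRNA2, AKR1C2 was lower and AKR1B1 higher, against 0.591% and 0.921% of 5752 genes. With gRNA3, these same genes were lower and higher, against 0.836% and 0.958% of 5743 genes. Between the controls 0 were lower and AKR1B1 was higher, against 0.175% and 0.0873% of 5726 genes. These counts describe genes named with earlier values in view and give no independent support. The median log2 ratio of the 7 was 0.11 for HA FOSL1, 0.053 for gRNA2 and 0.055 for gRNA3, beside 0.0042, 0.0089 and 0.0019 over all genes at that mean. At 2-fold, 2 were lower (AKR1C1 and AKR1C2) and 1 higher (AKR1B1) in the HA arm, against 0.8% and 2.16% of genes. With gRNA2, 0 were lower and 0 higher at 2-fold, against 0.191% and 0.296%. With gRNA3, 0 were lower and AKR1B1 was higher at 2-fold, against 0.192% and 0.418%. Between the controls 0 lay 2-fold apart, against 0.0175% lower and 0.0175% higher.

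**Figure D2:**
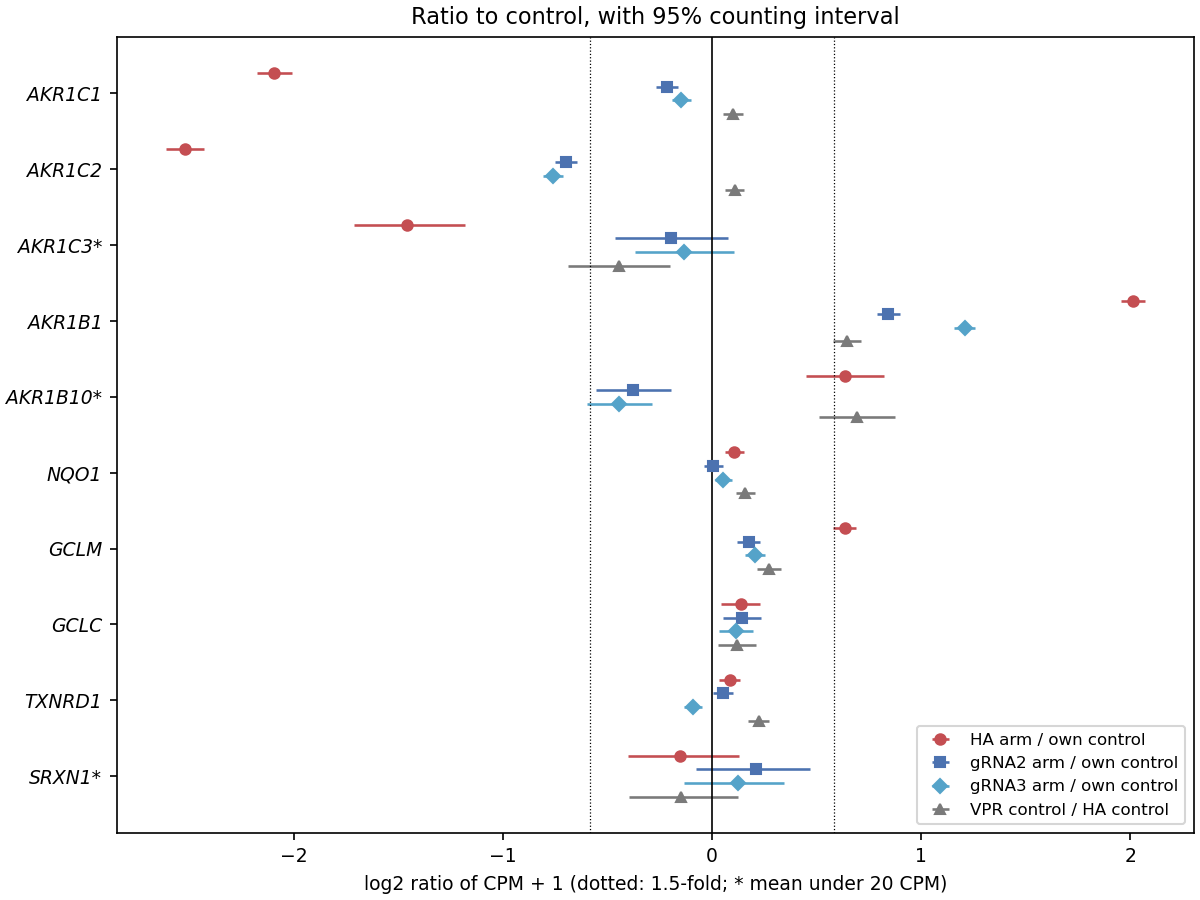
Ratio of each gene to the control of its own system, as log2 of CPM + 1 (horizontal axis), with 95% counting intervals, and of the VPR control to the HA control. Dotted lines mark 1.5-fold and asterisks mark genes under a mean of 20 CPM. AKR1C1 and AKR1C2 lie at -2.09 and -2.52 in the HA arm, AKR1B1 at 2.01, and NQO1, GCLC and TXNRD1 between -0.09 and 0.14 in every arm.

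The genes that control NRF2 were looked at in the same way. Of 10 regulators, 7 reached 20 CPM and 0 lay 1.5-fold from the control in any arm. Few genes of any kind did. Of all genes at that mean, 2.19% were lower and 5.97% higher in the HA arm. The shares were 0.591% and 0.921% with gRNA2, and 0.836% and 0.958% with gRNA3. The count of 0 is near these shares and says little about the regulators. NFE2L2 itself was at 205 CPM in the HA control, 167 CPM in HA FOSL1, 218 CPM in the VPR control, 203 CPM with gRNA2 and 198 CPM with gRNA3. Each FOSL1 sample lay under both controls, but gRNA2 hardly under the HA control. The controls also differed from each other, so the guide values depend on the control. Its log2 ratio was -0.29 in the HA arm (-0.33 to -0.25), -0.10 with gRNA2 (-0.14 to -0.062) and -0.14 with gRNA3 (-0.17 to -0.10). KEAP1, the adaptor that presents NRF2 for ubiquitination, was at 0.057, 0.17 and 0.12 in the same order. RNA levels say nothing about the amount or place of the NRF2 protein, which was not measured.

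A wider list of 55 textbook NRF2 targets outside the 10 genes was examined next, of which 32 reached 20 CPM. In the HA arm 1 of the 32 was at least 1.5-fold lower and 4 were higher, the list's median was 0.099, and 14 lay below 0 and 18 above. With gRNA2, 0 were lower and 1 was higher (median -0.0057), and with gRNA3, 0 were lower and 0 higher (median 0.014). The corresponding medians over all genes are those given above, and the shares past 1.5-fold are the percentages above. The gene that was lower was GSTM3, a glutathione transferase, at 81.9 CPM in the HA control and 49.6 CPM in HA FOSL1 (-0.71, -0.79 to -0.64). It was at -0.56 with gRNA2 and -0.50 with gRNA3. There the AKR1C sum was at -0.45 and -0.44, and AKR1C2 at -0.70 and -0.76. With the guides GSTM3 was thus lower by more than the AKR1C sum and by less than AKR1C2. The controls differed by -0.36, so that every FOSL1 sample was under both controls but by unequal amounts. GSTM genes are close copies that can share reads.

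Those that were higher in the HA arm were FTH1, ME1, TRIM16 and BLVRA. FTH1, the ferritin heavy chain, was at 8922 CPM in the HA control and 19044 CPM in HA FOSL1 (1.09), and its ratio was 0.61 with gRNA2 and 0.57 with gRNA3. FTL, the ferritin light chain, was at -0.23, 0.0097 and 0.13 in the 3 arms. ME1, malic enzyme, which supplies NADPH, was at 26.8 CPM in the HA control and 56.7 CPM in HA FOSL1 (1.05, 0.96 to 1.14), but at 0.0090 and 0.074 with the guides. TRIM16, a ubiquitin ligase of the stress response, was at 0.63, 0.14 and 0.0042, and BLVRA, which reduces biliverdin, at 0.62, -0.19 and -0.28.

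By function, the 9 glutathione genes at 20 CPM had a median of -0.052 for HA FOSL1, -0.040 for gRNA2 and 0.0063 for gRNA3. The 4 thioredoxin genes had medians of 0.24, 0.034 and 0.068, and thioredoxin itself, TXN, was at 0.48, 0.22 and 0.24. The 6 NADPH genes had medians of -0.060, -0.058 and 0.0039. The 5 haem and iron genes had medians of 0.37, -0.14 and 0.038, and the 8 detoxification genes 0.28, 0.093 and -0.015. Of 9 other aldo-keto reductases, 7 were in the table and 2 reached 20 CPM. Neither lay 1.5-fold from a control, as held for most genes by the shares given above. AKR1A1, aldehyde reductase, was at 73.0 CPM in the HA control, 58.3 CPM in HA FOSL1, 74.7 CPM in the VPR control, 58.1 CPM with gRNA2 and 60.4 CPM with gRNA3, so that all 3 FOSL1 samples lay under both controls. These levels gave log2 ratios of -0.32 for HA FOSL1, -0.36 for gRNA2 and -0.30 for gRNA3. AKR7A2, a reductase of succinic semialdehyde and of aflatoxin aldehydes, was at -0.14, 0.013 and 0.023.

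**Figure D3:**
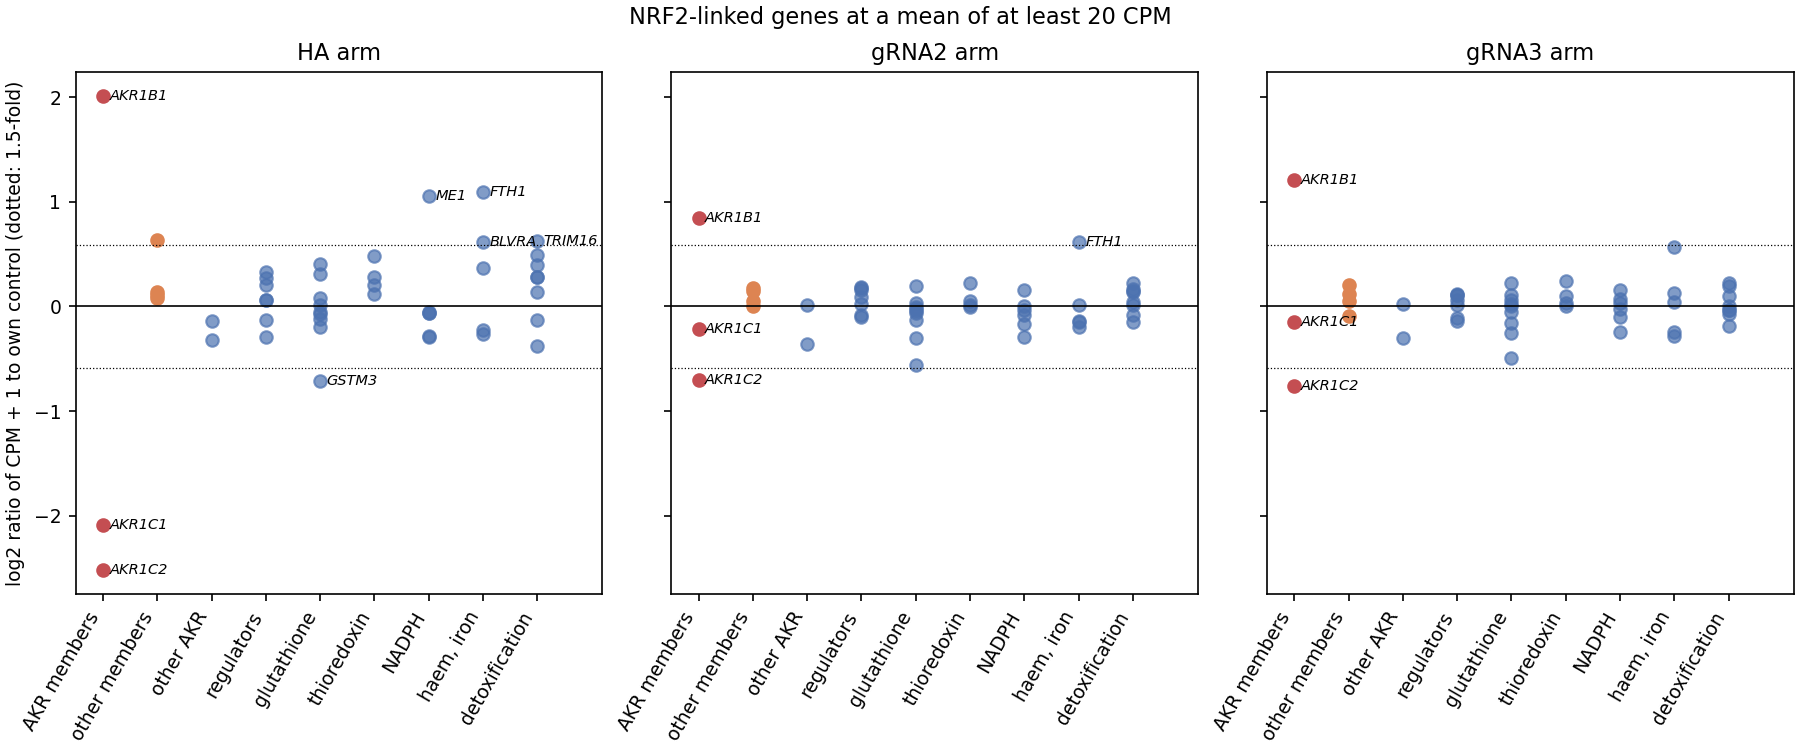
Log2 ratio of CPM + 1 to the control of the same system (vertical axis) for NRF2-linked genes that averaged 20 CPM or more, grouped by function, 1 panel per arm. Points are single genes, dotted lines mark 1.5-fold, and genes past it outside the members are named. In the HA arm AKR1C1 and AKR1C2 lie at -2.09 and -2.52, below GSTM3 at -0.71.

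The genes around the AKR1C cluster were measured as well. Within 500 kb of it, 11 other annotated genes were in the table and 2 reached 20 CPM. NET1, an exchange factor of RhoA, had ratios of -0.14 for HA FOSL1, -0.067 for gRNA2 and -0.21 for gRNA3. CALML5, a calmodulin-like protein of skin, was at -0.13, -0.098 and -0.14. Neither showed the HA value of the AKR1C genes.

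By the root mean square difference of log2 levels centred over the 5 samples, the genes most like the AKR1C sum among 5747 were NR4A1 (0.317), GNG11 (0.335), APCDD1 (0.343), FOSB (0.366) and TCEA3 (0.400). AKR1C1 (0.125) and AKR1C2 (0.131) lay closer, but they supply most UMIs of the sum, so their closeness was fixed in advance. The sparse AKR1C3 was at 0.484, farther from the sum than any of these 5 genes, and NQO1 was at 0.886. In the HA arm these 5 genes lay between -1.61 and -2.02. With gRNA2 and gRNA3, APCDD1 stayed near the AKR1C sum, at -0.44 and -0.46 against -0.45 and -0.44. The others parted from the sum in at least 1 guide arm. NR4A1 was at -0.13 and -0.75, GNG11 at 0.16 and 0.11, FOSB at 0.21 and -0.68, and TCEA3 at -0.56 and -0.94.

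The AKR1C values were next taken cell by cell, with every cell thinned to 5000 UMIs so that depth was equal. In the HA control 56.9% of cells held a UMI of any AKR1C gene (Clopper-Pearson interval 55.2% to 58.6%), and in HA FOSL1 20.5% did (18.6% to 22.4%). In the VPR system it was found in 59.1% of control cells (57.2% to 61.0%), 46.6% with gRNA2 (44.6% to 48.5%) and 48.7% with gRNA3 (47.2% to 50.2%). Without thinning the shares were 77.9%, 42.7%, 79.5%, 70.5% and 73.5% in the same order. No cell type in the pool lacks these genes, so the background was read from empty droplets, which held the AKR1C genes at 171 CPM. If 5% of a cell's UMIs were such free RNA, 4.19% of thinned cells would hold an AKR1C UMI from it.

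AKR1C RNA was spread unevenly over cells in every sample. The variance of the thinned AKR1C count was 2.54 times its mean in the HA control, 2.42 in HA FOSL1, 2.73 in the VPR control, 3.22 for gRNA2 and 3.02 for gRNA3, where even spread with counting error alone gives a value near that of GCLC, 0.973 to 1.02. This value also depends on the mean, 1.46 UMIs in the HA control and 0.34 in HA FOSL1, so like values need not mean like unevenness. The top 1% of cells held 6.77% of AKR1C UMIs in the HA control and 18.3% in HA FOSL1. That share also rises where a gene is sparse. Cells with at least 5 AKR1C UMIs made up 8.11% of the HA control (7.21% to 9.08%), 0.825% of HA FOSL1 (0.463% to 1.36%), 9.39% of the VPR control (8.30% to 10.6%), 6.50% with gRNA2 (5.58% to 7.53%) and 6.71% with gRNA3 (5.98% to 7.51%). Among cells with any AKR1C UMI the mean was 2.57 UMIs in the HA control, 1.66 in HA FOSL1, 2.68 in the VPR control, 2.59 for gRNA2 and 2.51 for gRNA3. HA FOSL1 thus had both fewer positive cells and fewer UMIs in each, whereas the guide samples had fewer positive cells and nearly the control's level in those.

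AKR1B1 was found in 21.6% of thinned HA control cells (20.2% to 23.1%), 51.2% of HA FOSL1 cells (48.8% to 53.5%), 29.5% of VPR control cells (27.8% to 31.3%), 44.1% with gRNA2 (42.2% to 46.1%) and 50.2% with gRNA3 (48.7% to 51.7%). Unthinned, the shares ran from 49.0% to 86.1%. The variance of AKR1B1 was 1.36 times its mean in the HA control, 3.01 in HA FOSL1, 2.61 in the VPR control, 1.94 for gRNA2 and 2.33 for gRNA3. Such a value can rest on few cells. Cells with at least 5 AKR1B1 UMIs made up 0.178% of the HA control and 4.13% of HA FOSL1. In the VPR system they made up 0.464% of the control, 1.42% with gRNA2 and 2.73% with gRNA3. Single cells held up to 144 AKR1B1 UMIs before thinning. NQO1 was found in 52.6% to 56.9% of thinned cells in all 5 samples, with a variance of 1.08 to 1.20 times its mean. At that free RNA share, 3.64% of thinned cells would hold an AKR1B1 UMI and 4.62% an NQO1 UMI from empty-droplet RNA.

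**Figure D4:**
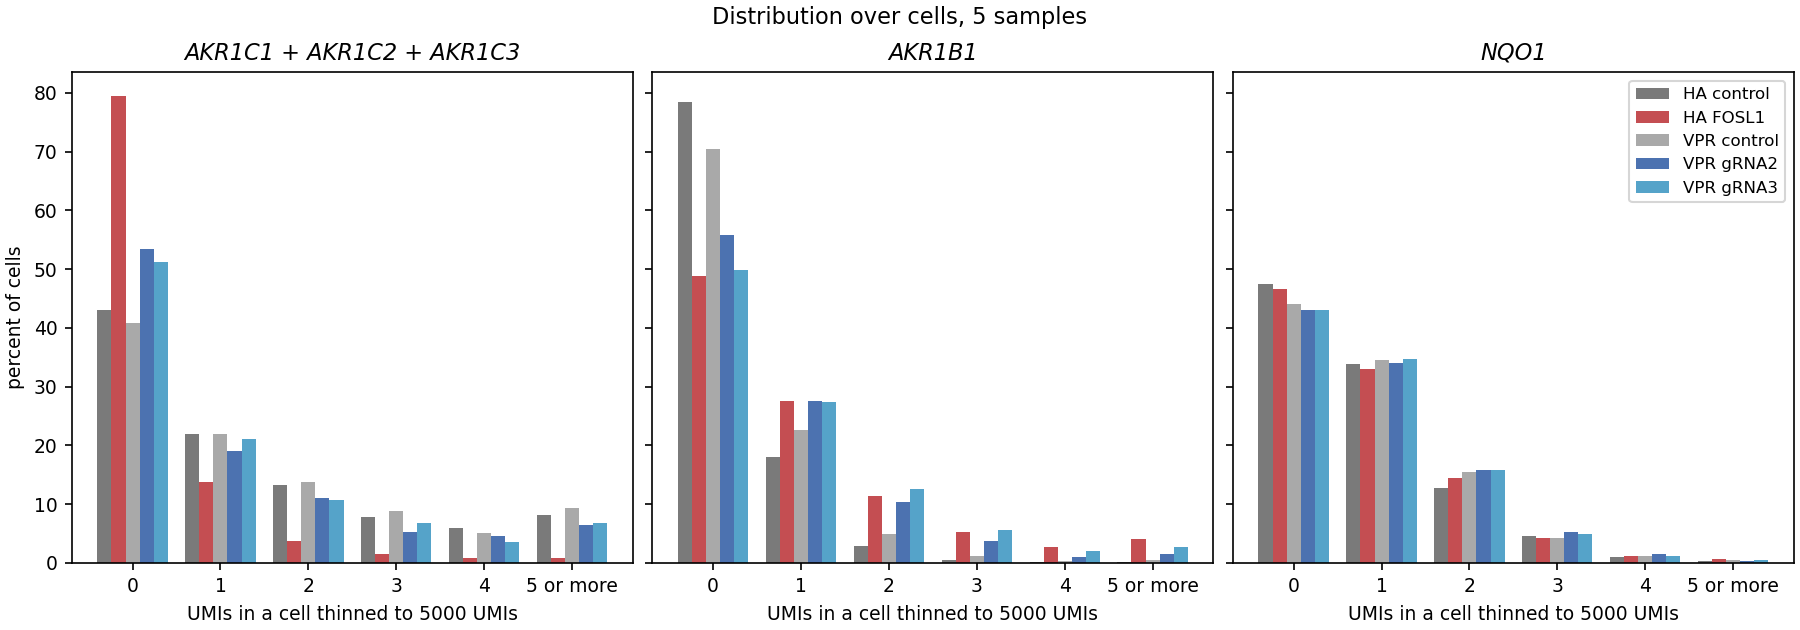
Percent of cells (vertical axis, from 0) by the number of UMIs of the summed AKR1C genes, AKR1B1 or NQO1 in a cell thinned to 5000 UMIs (horizontal axis), for the 5 samples. Cells with 0 AKR1C UMIs make up 43.1% of the HA control and 79.5% of HA FOSL1, while NQO1 bars nearly coincide.

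Within a sample, cells with a FOSL1 UMI had less AKR1C RNA than cells without. This comparison uses no other sample. After thinning, the share of cells with a FOSL1 UMI was 3.06% in the HA control, 20.8% in HA FOSL1, 3.59% in the VPR control, 32.7% for gRNA2 and 29.2% for gRNA3. Free RNA at 5% of a cell's UMIs would give such a UMI in 1.57% of cells. That is a large part of the control shares of 3.06% and 3.59%. Many of those control cells may thus hold FOSL1 only from free RNA of the pool. In HA FOSL1 the AKR1C sum was 38.6 CPM in 378 cells with a FOSL1 UMI and 75.7 CPM in 1440 cells without (log2 -0.95, -1.32 to -0.61). With gRNA2 it was 170 against 276 CPM (-0.70, -0.82 to -0.57), and with gRNA3 203 against 262 CPM (-0.37, -0.46 to -0.28). In the VPR control, where 93 cells had a FOSL1 UMI, it was 170 against 323 CPM (-0.92, -1.26 to -0.60). In the HA control, with 103 such cells, the ratio was -0.20 and its interval held 0 (-0.46 to 0.052). The same cells split by an AKR1C UMI gave another reading. FOSL1 in the HA control was then 5.11 CPM in cells with an AKR1C UMI and 8.69 CPM in cells without (-0.66, -1.15 to -0.18). Whether the HA control shares the relation is therefore not settled. By the FOSL1 split AKR1C2 had the lower ratio of the pair in the 5 samples, -1.22 against -0.68 for AKR1C1 in HA FOSL1 and -0.95 against -0.50 with gRNA2.

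AKR1B1 was higher in cells with a FOSL1 UMI, by 0.20 in HA FOSL1 (0.048 to 0.35), 0.62 with gRNA2 (0.48 to 0.75), 0.40 with gRNA3 (0.31 to 0.49) and 0.59 in the VPR control (0.18 to 0.97). In the HA control the interval held 0. NQO1 was slightly lower in such cells, at -0.26 in HA FOSL1 (-0.45 to -0.068), -0.19 with gRNA2 and -0.18 with gRNA3, and its intervals in both controls held 0. GCLM was higher in such cells of HA FOSL1 (0.24, 0.039 to 0.43) and gRNA3 (0.16, 0.043 to 0.28), and its intervals in the other 3 samples held 0. TXNRD1 was lower in those of HA FOSL1 (-0.21, -0.43 to -0.0026), and its intervals elsewhere held 0. GCLC and SRXN1 intervals held 0 in all 5 samples. The 5 NRF2 targets summed were at -0.090 for gRNA2 (-0.17 to -0.012), and the interval of the sum held 0 in the other 4 samples. Cells with a FOSL1 UMI had been deeper before thinning. Their median was 24128 against 20388 UMIs in HA FOSL1 and 19240 against 16835 with gRNA2. In every sample they also had the lower median mitochondrial share, whereas cells with an AKR1C UMI had the higher. The part of depth and of mitochondrial share in the ratios was not tested. Cells are not replicates, and a cell without a FOSL1 UMI may still express FOSL1. The intervals treat UMIs as independent and are too narrow for AKR1B1 and the AKR1C genes, whose counts were uneven over cells. The 0.20 of AKR1B1 in HA FOSL1 is therefore uncertain.

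**Figure D5:**
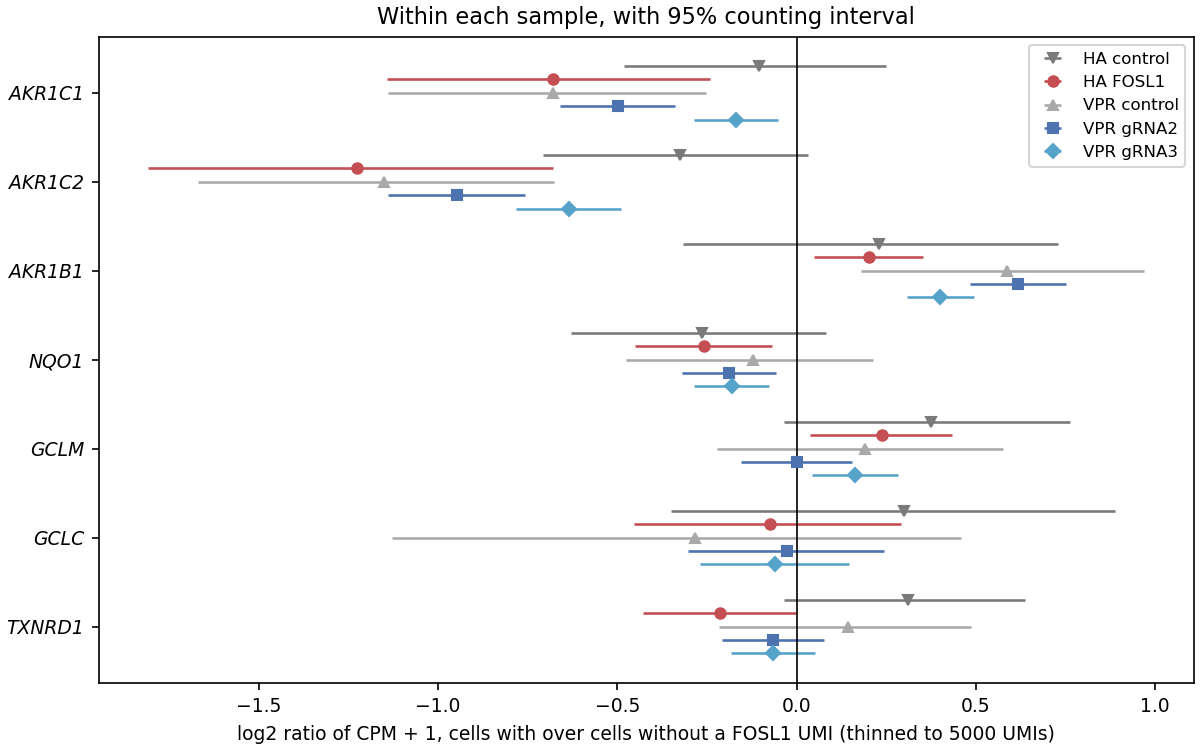
Ratio between cells with and cells without a FOSL1 UMI within each sample, as log2 of CPM + 1 (horizontal axis), for the 7 genes at a mean of 20 CPM, with 95% counting intervals. AKR1C2 lies below 0 in all 5 samples, from -1.22 in HA FOSL1 to -0.33 in the HA control, whose interval holds 0.

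Split instead by an AKR1C UMI, the 5 NRF2 targets outside the aldo-keto reductases, summed, hardly differed within a sample. In the HA control they stood at 403 CPM in 1917 cells with an AKR1C UMI and 393 CPM in 1450 cells without (log2 0.034, -0.036 to 0.10). The ratio was 0.097 in HA FOSL1 (-0.0096 to 0.20), -0.00066 in the VPR control, 0.025 for gRNA2 and 0.023 for gRNA3, and each interval held 0. Single genes did differ, since NQO1 was higher in AKR1C-positive cells by 0.12 to 0.33 in the 5 samples, each interval above 0. For GCLM the ratio was -0.20 in the VPR control, -0.28 for gRNA2 and -0.17 for gRNA3, while GCLC was at 0.33 for gRNA2 (0.072 to 0.58) and TXNRD1 at -0.12 for gRNA3 (-0.22 to -0.012). The TXNRD1 interval ended near 0, and its variance over gRNA3 cells was 1.23 times its mean, so that value is uncertain. The NQO1 interval in the HA control began at 0.0093, also near 0. AKR1B1 was lower in AKR1C-positive cells of 4 samples, at -0.60 in the HA control (-0.78 to -0.41), -0.46 in the VPR control, -0.53 for gRNA2 and -0.24 for gRNA3. HA FOSL1 was at 0.26 (0.11 to 0.41). That interval treats UMIs as independent and is too narrow, since the variance of AKR1B1 over HA FOSL1 cells was 3.01 times the mean. The sign there is therefore uncertain. AKR1C-positive cells had been shallower before thinning, with a median of 14970 against 16045 UMIs in the HA control and 19560.5 against 21306 in HA FOSL1. Their median mitochondrial share was the higher in every sample, 10.7% against 9.59% in HA FOSL1 and 11.7% against 10.7% in the VPR control. The part of depth and of mitochondrial share was not tested.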

How the data were processed

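The authors deposited 1 matrix of raw UMI counts per gene and barcode, made with Cell Ranger version 4 per the file headers, on hg38 per the submitters' processing notes. The deposited assignment table gives each of 21228 called cells a hashtag with its probability as a fraction, and the assignment tool is not stated. The labels' protocols speak of a pool of 6 samples, and 5 are named. Hashtags with the prefix GOF were taken as the HA samples by elimination.

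Of 15371 cells assigned to a sample, 14642 had at least 1500 genes and at most 20% mitochondrial UMIs and were kept. Multiplets (5181), unassigned cells (402) and blanks (274) were left out, and doublets of 1 sample were not called. UMIs were summed per sample and scaled to CPM. Ratios are log2 of CPM + 1 with exact conditional binomial intervals. These treat UMIs as independent and are too narrow for genes spread unevenly over cells. They were tried only on simulated Poisson counts that share this assumption, so the trial could not show that limit. Shares have Clopper-Pearson intervals. Cells under 5000 UMIs (5 to 13 per sample) were left out of thinning. Empty droplets were 48909 barcodes with 10 to 100 UMIs. A gene was counted past 1.5-fold where it averaged 20 CPM or more over the pair compared. No test between samples was made. Scaling alternatives used edgeR 4.0.16 and DESeq2 1.42.0 factors, and others changed the pseudocount, cells, depth, free RNA, fold, CPM minimum or control. Other named genes were NRF2-list members past 1.5-fold in an arm, the 5 nearest to the AKR1C sum, and neighbours within 500 kb at 20 CPM. NFE2L2, KEAP1, AKR1A1, AKR7A2, TXN and FTL fall outside that rule and were chosen after their values were seen. Members and lists were chosen with earlier results of these data known. Gene positions and promoters are RefSeq's (GRCh38.p14), and 9 of 10 members matched the promoter table.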

Additional observations from a re-analysis of the deposited data

Results flagged for a closer look

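For 2 genes the HA arm lay on the other side of 0 from both guide arms, with every counting interval off 0, and the difference between the systems was not tested. AKR1B10 was at 0.64 for HA FOSL1, -0.38 for gRNA2 and -0.44 for gRNA3, and against the control of the other system each of these signs turned (-0.057, 0.32 and 0.25). BLVRA was at 0.62 for HA FOSL1, -0.19 for gRNA2 and -0.28 for gRNA3. The guide arms share 1 control, so their like sign is not independent.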

How the results depend on the processing

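The AKR1C sum was lower in all 3 arms under each of the 9 alternatives run for it. In the HA arm it was -2.09 with cells thinned, -2.42 against the control of the other system, -2.51 with free RNA removed, -2.24 with a pseudocount of 5 CPM and -2.26 without the 10% deepest cells. With gRNA2 it was -0.39 with cells thinned and -0.35 against the other control, and with gRNA3 -0.40 with DESeq2 factors, -0.39 with TMM factors, -0.37 with cells thinned and -0.34 against the other control. Among the 10 genes, 1 was higher in the HA arm against the other control (5.19% of all genes under that setting, as are the shares below) and 1 at a fold of 2 (2.16%). At that fold 0 were lower and 0 higher with gRNA2, 0 were lower with gRNA3 and 0 higher between the controls, and without a CPM minimum 2 were higher between the controls (0.0686%).

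The alternatives for the wider NRF2 list, and the other control for the single genes, were chosen after seeing the data. In the HA arm, 2 of that list were higher with a pseudocount of 5 CPM (5.32%), 2 at a fold of 2 (2.16%) and 2 against the other control (5.19%). In that arm 0 were lower at a fold of 2 (0.8%), 0 against the other control (1.91%) and 5 without a CPM minimum (1.94%), and the median against the other control was -0.0045. With gRNA2, 0 were higher at a fold of 2 (0.296%), 2 without a minimum (0.59%) and 2 against the other control (1.57%), and 1 was lower with free RNA removed (0.642%), 1 without a minimum (0.516%) and 1 against the other control (1.15%). With gRNA3, 1 was higher with TMM factors (1.07%), 1 with DESeq2 factors (1.05%), 1 with free RNA removed (1.03%), 1 without a minimum (0.605%) and 2 against the other control (1.65%), and 1 was lower without a minimum (0.748%) and 1 against the other control (1.3%). Without a minimum all 55 genes of the list were counted, not only those at 20 CPM. The cause of these shifts was not tested.

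Against the other control the HA ratio was -0.054 for NQO1 and -0.14 for TXNRD1. No paired analysis was possible because each group has 1 sample and no test was made, and no replicate could be left out. AKR1C3, AKR1B10 and SRXN1 are limited by depth.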

Other observations

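A sparse gene near the AKR1C cluster was higher in the FOSL1 samples. MANCR, a long non-coding RNA gene that starts at 4650185 on chromosome 10 and was chosen after its values were seen, stood at 1.32 CPM in the HA control, 15.1 CPM in HA FOSL1, 1.76 CPM in the VPR control, 5.04 CPM with gRNA2 and 4.29 CPM with gRNA3. All 3 FOSL1 samples were above both controls.

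Very high AKR1B1 was seen in few cells. At least 10 of 5000 UMIs were AKR1B1 in 12 HA FOSL1 cells (0.660%, 0.342% to 1.15%), 14 gRNA3 cells (0.326%) and 4 gRNA2 cells (0.158%). The same held for 1 cell of the HA control (0.0297%) and 1 of the VPR control (0.0387%).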
